A study of Mus musculus with 1753 samples.

Results

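A set of 8 matricellular genes was followed through 1753 single cells of mouse skeletal muscle. They were periostin (Postn), transforming growth factor beta induced (Tgfbi), tenascin C (Tnc), tenascin XB (Tnxb), Cthrc1, C1qtnf3, Cilp and Cilp2, that is 8 of the 46517 genes in the count table. The genes were chosen by name, and they were selected on earlier results from these same cells. Clusters had also been made from these counts, so the levels by cluster below are a description and carry no test. The cells were fibroblasts and mural cells from skeletal muscle of male mice of 10 to 20 weeks, sorted one by one into plates and sequenced with Smart-seq2, which reads full-length transcripts without molecular identifiers. Labels gave each cell a cluster from 1 to 10 and 1 of 5 strain labels: C57BL6, an inbred strain without a reporter, and Acta2GFP, Cspg4dsRED, PdgfrbGFP and PdgfraGFP - PdgfrbGFP pool (below, the pool), whose fluorescent reporters are driven by the genes they are named for. Because the sort relied on reporters or on antibodies against the PDGF receptors, the gate differed between strain labels, and the numbers of cells per class are those of the gate. One protocol field of the labels names heart, whereas the tissue label and the titles name skeletal muscle. The labels name no animal. The methods describe that soleus from 1 Pdgfra reporter mouse and 1 Pdgfrb reporter mouse was pooled once, and how many mice stand behind each of the other labels is not known here, so the spread between labels may include mice, plates and sorts.

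Matricellular proteins are secreted into the extracellular matrix, where they regulate how cells and collagen fibres interact rather than acting mainly as load-bearing fibres. Periostin and Tgfbi are fasciclin-domain proteins that bind collagen and integrins, and periostin also helps to bring BMP1 to the enzyme lysyl oxidase, which cross-links collagen. Tenascins are large glycoproteins, of which tenascin C is typical of tendon and of injured tissue, while tenascin X associates with collagen fibrils of loose connective tissue and skin. In muscle, such matrix is laid down by fibroblasts of the endomysium around single fibres and of the perimysium around fibre bundles.

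Counts were scaled to 500000 per cell without spike-ins, and all levels below are in this unit unless another one is named. A gene was counted as present in a cell at 100 or more. Levels are means over strain labels with 3 or more cells of a group ± SD over those labels, with n the number of labels. Shares of pooled cells carry exact 95% binomial intervals, which cover counting error only. Following the study's names, clusters 2 and 9 (328 cells) are perimysial, cluster 4 (60 cells) paramysial, and clusters 1, 3, 5, 6 and 8 (1116 cells) endomysial. Cluster 7 (187 cells) is mural, and cluster 10 (62 cells) has no class name. Depth ran from 46097 to 1055869 counts per cell. The median cell held 595321 counts in the paramysial class, 257230 in the perimysial, 276880 in the endomysial and 156959 in the mural class. The summed level of 5 tendon-type perimysial markers (Tnmd, Scx, Thbs1, Col11a1 and Fmod) was 9027 over perimysial cells, 729 over paramysial cells and 163 over endomysial cells. The 5 mural markers summed to 9002 in mural cells and to 214 or less in each other class, whereas the perimysial list was at 313 in mural cells. In cluster 9 the mural list was at 373. Under the highest strain label it reached 519 in perimysial and 316 in endomysial cells. Lists of 6 endothelial and 6 immune genes summed to at most 29.2 in any class, while in mural cells of 1 strain label the immune list reached 428. The endothelial list reached 169 in cluster 10 and 136 in mural cells, each under its highest strain label. Muscle fibre genes summed to 209 in paramysial cells and to between 22.2 and 89.3 in the other classes, and the part this has in the paramysial values was not tested.

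Periostin was highest in paramysial cells and came next in a small perimysial cluster. Postn (ENSMUSG00000027750) lies on GRCm38 chromosome 3 from 54361109 to 54391037 on the plus strand. Its mean level in paramysial cells was 1937 in Acta2GFP, 1866 in C57BL6, 1688 in PdgfrbGFP and 2391 in the pool, and the only paramysial cell of Cspg4dsRED held 2240. The mean over labels was 1970 ± 299 (n = 4). The value of PdgfrbGFP came mostly from 1 of its 4 cells, which held 0, 10.9, 989.7 and 5750. In cluster 9, the smaller perimysial cluster of 59 cells, the same gene was at 2407 in Acta2GFP, 590 in C57BL6, 1084 in PdgfrbGFP and 924 in the pool. These values averaged 1251 ± 797 (n = 4) and overlapped those of paramysial cells. In cluster 2, the larger perimysial cluster, no strain label exceeded 48.0, and the mean was 23.8 ± 20.7 (n = 5). The label perimysial therefore joined a cluster with high and a cluster with low Postn. Endomysial cells were at 51.0 ± 38.7 and mural cells at 125 ± 98.3 (n = 5 each). Within the endomysial class cluster 5, with 31 cells, stood highest at 400 ± 394 (n = 3).

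Postn was present in 58 of 60 paramysial cells (96.7%, interval 88.5 to 99.6), and the 2 cells below 100 both carried the label PdgfrbGFP, which had 4 paramysial cells in all. It was present in 48 of 59 cells of cluster 9, in 11 of 269 cells of cluster 2, in 82 of 1116 endomysial cells (7.35%, interval 5.89 to 9.04) and in 32 of 187 mural cells. Cluster 4 and cluster 9 together were 119 cells of the 1753, and they held 46.0% and 29.6% of all scaled Postn counts.

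Tgfbi, the other fasciclin gene, was highest elsewhere. Tgfbi (ENSMUSG00000035493, chromosome 13 from 56609523 to 56639562, plus strand) was highest in cluster 5 at 1267 ± 427 (n = 3) and in cluster 10 at 1260 ± 653 (n = 3), the cluster marked by Ngfr. Endomysial cells as a class, 1116 of the 1753 cells, had 526 ± 165 (n = 5) and held 75.4% of its counts. Paramysial cells had 313 ± 275 (n = 4). In paramysial cells the labels were far apart, with 233 in Acta2GFP, 702 in C57BL6, 52.2 in PdgfrbGFP and 266 in the pool. The perimysial clusters split here too, in the direction opposite to Postn. Cluster 2 had 278 ± 75.3 (n = 5) and cluster 9 had 43.2 ± 30.2 (n = 4), and no strain label of cluster 9 reached the lowest of cluster 2, at 196. Mural cells were lowest, at 14.9 ± 10.2 (n = 5).

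The tenascins were highest in different clusters. Tnc (ENSMUSG00000028364, chromosome 4 from 63959785 to 64047015, minus strand) was a gene of cluster 2, with 394 in Acta2GFP, 597 in C57BL6, 358 in Cspg4dsRED, 693 in PdgfrbGFP and 532 in the pool. All 5 labels lay above every label of cluster 9, which averaged 165 ± 118 (n = 4). Paramysial cells followed with 64.6 ± 42.3 (n = 4), and endomysial cells were at 1.86 ± 1.64 (n = 5). Cluster 2 held 89.4% of all Tnc counts. Of its exonic bases 2.26% overlap 8030451A03Rik on the opposite strand, and the use of strand in counting is not given in the sources used here. Tnxb (ENSMUSG00000033327, chromosome 17 from 34670535 to 34719815, plus strand) was instead an endomysial gene, at 380 ± 50.2 in cluster 1 and 373 ± 57 in cluster 3 (n = 4 each). Its level was 78.9 ± 40.3 in cluster 2 (n = 5) and 5.80 ± 5.46 in cluster 9 (n = 4), the lowest of all clusters. Paramysial cells ranged from 31.3 in Acta2GFP to 330 in C57BL6. Endomysial cells, 1116 of the 1753, held 90.5% of all Tnxb counts. Both tenascins were present together in 49 of 328 perimysial cells, all of cluster 2, and in 7 of 60 paramysial cells.

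Cthrc1 and C1qtnf3 encode secreted proteins with a collagen-like stretch. Cthrc1 is known from injured arteries and remodelling matrix, and C1qtnf3 belongs to the C1q/TNF family of secreted regulators. Both were highest in paramysial cells, but not under every strain label. Cthrc1 (ENSMUSG00000054196, chromosome 15 from 39076932 to 39087121, plus strand) was at 255 in Acta2GFP, 157 in C57BL6, 226 in the pool and 10.4 in PdgfrbGFP. C1qtnf3 (ENSMUSG00000058914, chromosome 15 from 10952332 to 10980150, plus strand) was at 875, 532 and 750 in the first 3 of these, and at 0.576 in PdgfrbGFP. Cell by cell, the 4 paramysial cells of PdgfrbGFP held 2.31, 0, 0 and 0 of C1qtnf3 and the cell of Cspg4dsRED 0, while the same 4 PdgfrbGFP cells had the highest mean Cilp of any label, at 6581. Averaged over labels, Cthrc1 was at 162 ± 109 and C1qtnf3 at 539 ± 386 (n = 4 each). Cluster 9 followed for Cthrc1, at 91.9 ± 42.3 (n = 4), and cluster 2 for C1qtnf3, at 139 ± 146 (n = 5), and in both cases the strain labels overlapped those of paramysial cells. Endomysial cells were at 2.76 ± 1.93 for Cthrc1 and at 9.74 ± 3.33 for C1qtnf3 (n = 5 each).

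As a mean over strain labels Cilp was the most abundant of the 8 genes in paramysial cells, although in the pool, with 46 of the 60 cells, Postn at 2391 stood above Cilp at 2167. Cilp encodes the cartilage intermediate layer protein, a matrix protein that can bind and restrain TGF-beta, and Cilp2 encodes its paralogue. Cilp (ENSMUSG00000042254, chromosome 9 from 65265180 to 65280605, plus strand) reached 4652 in Acta2GFP, 2655 in C57BL6, 6581 in PdgfrbGFP and 2167 in the pool, a mean of 4014 ± 2021 (n = 4). It was present in 60 of 60 paramysial cells and in 59 of 59 cells of cluster 9, where it stood at 2251 ± 192 (n = 4), and in cluster 2 it was at 1797 ± 760.5 (n = 5). Endomysial cells had 622 ± 225 (n = 5), and within that class cluster 1 was lowest, at 68.6 ± 38.6 (n = 4). Cilp2 (ENSMUSG00000044006, chromosome 8 from 69880369 to 69887687, minus strand) did not follow its paralogue into paramysial cells. It was at 1002 ± 388 in cluster 2 (n = 5), 425 ± 251 in cluster 9 (n = 4) and 30.9 ± 28.8 in paramysial cells (n = 4), and the labels of cluster 9 and cluster 4 did not overlap. Present in 241 of 269 cells of cluster 2, Cilp2 was found in 5 of 60 paramysial cells, and cluster 2 held 89.2% of its counts.

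**Figure D1:**
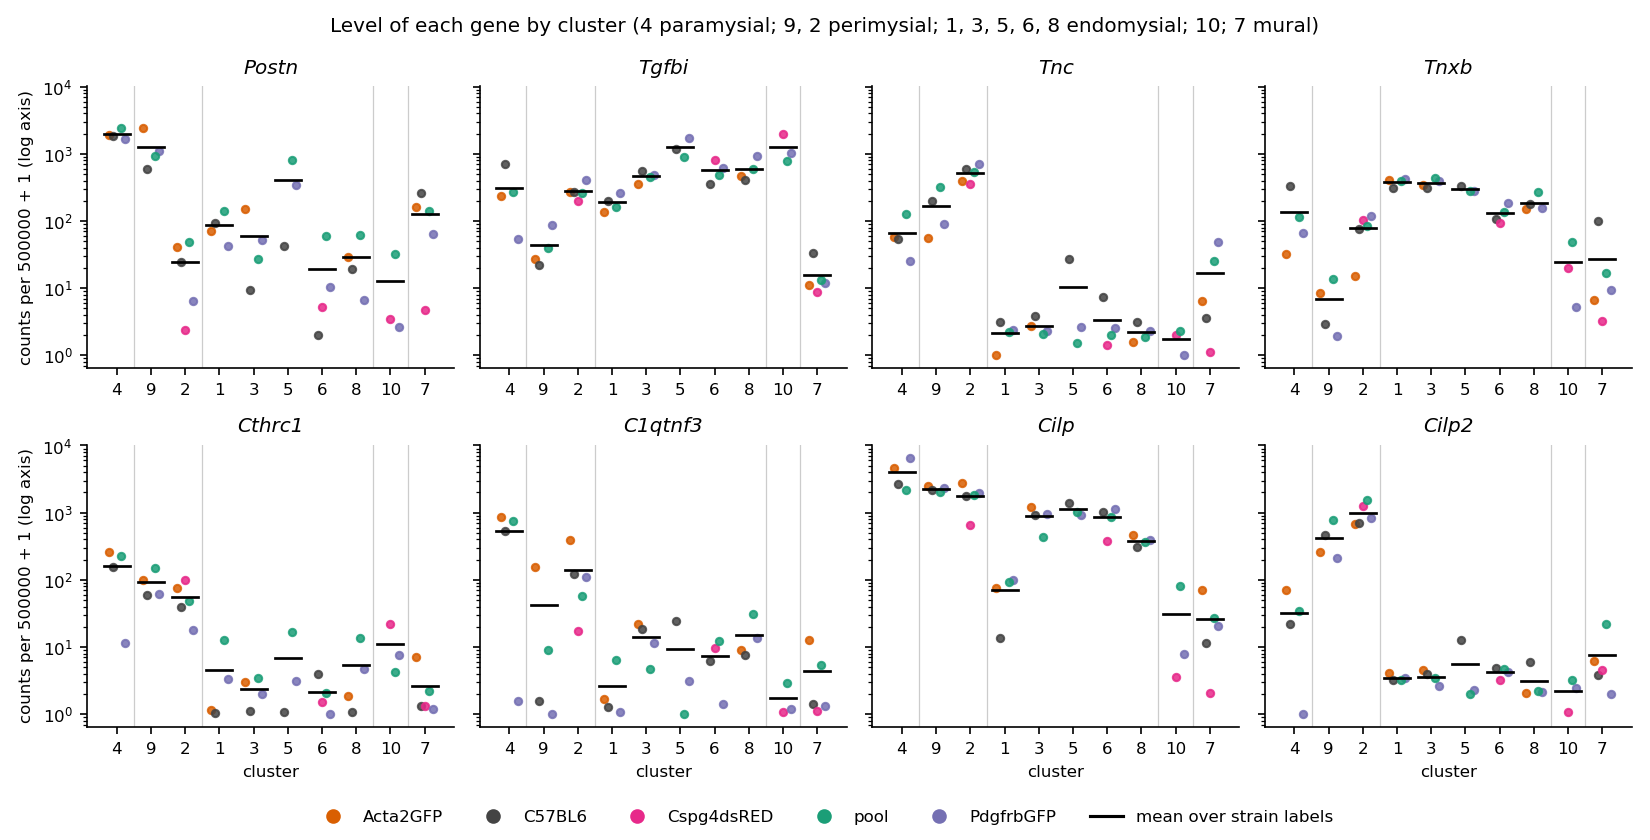
Mean level of each gene in each cluster, in counts per 500000 plus 1 on a log axis. Each point is 1 strain label with 3 or more cells of the cluster and each bar the mean over labels. Postn peaks in clusters 4 and 9, Tnc and Cilp2 in cluster 2, Tnxb in clusters 1 and 3, and the PdgfrbGFP point of C1qtnf3 in cluster 4 lies near 0.

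Counts per kilobase of exonic sequence compare genes only roughly, because the length was that of all annotated exons of a gene merged. Where the transcripts made use fewer bases, the value is too low, and close ranks are not settled. For Postn the merged length was 8702 bases. On this scale the order in paramysial cells was Cilp at 944, Postn at 226, C1qtnf3 at 211, Cthrc1 at 102, Tgfbi at 83.1, Tnxb at 11.1, Tnc at 8.31 and Cilp2 at 7.17. In perimysial cells it was Cilp at 425, followed by Cilp2 at 201, with Tgfbi, Tnc and Postn at 57.8, 55.0 and 51.7. In endomysial cells Cilp at 146 and Tgfbi at 139 led, and Tnxb followed at 21.2. Down the order of clusters most neighbours overlapped between strain labels. Neighbours that did not overlap were clusters 1 and 9 for Tgfbi, 2 and 9 for Tnc, 5 and 8 for Tnxb, 8 and 1 for Cilp, and 9 and 4 for Cilp2.

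Of the 8 genes 7 had an entry in the RefSeq promoter table (build GRCm38.p6), and Cthrc1 did not. The 250 bases before the start site are shown, 5′ to 3′ along the gene, for 2 genes highest or near highest in paramysial cells (Postn and C1qtnf3) and for Tnc, the gene of cluster 2. Of the start sites RefSeq gives for Postn and Tnc, the one nearest the GENCODE start was taken. Capitals mark TATAAA, the TATA box, and CANNTG, the E-box, which is the general form bound by basic helix-loop-helix factors such as Scleraxis, the tendon factor. Both strands were searched, and these motifs do not overlap each other here.
Postn, chr3:54360857-54361106 (+): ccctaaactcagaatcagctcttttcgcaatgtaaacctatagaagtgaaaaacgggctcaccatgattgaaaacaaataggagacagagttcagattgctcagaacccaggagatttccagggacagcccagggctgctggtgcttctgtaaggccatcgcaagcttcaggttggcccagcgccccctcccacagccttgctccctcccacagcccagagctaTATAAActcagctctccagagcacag
C1qtnf3, chr15:10952082-10952331 (+): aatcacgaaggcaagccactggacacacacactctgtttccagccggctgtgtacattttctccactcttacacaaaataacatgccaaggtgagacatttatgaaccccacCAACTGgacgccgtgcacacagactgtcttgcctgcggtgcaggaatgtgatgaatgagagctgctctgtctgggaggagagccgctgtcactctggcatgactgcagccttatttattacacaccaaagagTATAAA
Tnc, chr4:64047016-64047265 (-): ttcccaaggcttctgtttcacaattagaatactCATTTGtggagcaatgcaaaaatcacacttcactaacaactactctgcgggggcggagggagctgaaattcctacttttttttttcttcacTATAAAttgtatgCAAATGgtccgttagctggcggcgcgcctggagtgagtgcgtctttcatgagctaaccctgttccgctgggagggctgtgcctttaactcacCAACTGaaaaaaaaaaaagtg
TATAAA began 26 bases before the start site in Postn and 126 bases before it in Tnc, and in C1qtnf3 its letters were the last 6 before the start. Of all 32851 promoters in the table, 4063 (12.4%) held TATAAA in this window. The Tnc window held E-boxes that began 217, 113 and 21 bases before the start, the C1qtnf3 window 1 at 138 bases, and that of Postn 0. E-boxes were found in 21753 promoters (66.2%). In the windows of Cilp, Cilp2 and Tnxb 3, 1 and 1 E-boxes were found and TATAAA was not, and in that of Tgfbi neither was found. These matches describe the letters only.

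Next, the genes were counted in combination within single cells. The median paramysial cell held 5 of the 8 genes at 100 or more, against 4 in perimysial, 2 in endomysial, 1 in cluster 10 and 0 in mural cells. In no cell of the 1753 were all 8 present. Postn, Cthrc1 and C1qtnf3 were present together in 28 of 60 paramysial cells (46.7%, interval 33.7 to 60.0). These were 4 of 6 cells of Acta2GFP, 2 of 3 of C57BL6, 22 of 46 of the pool and 0 of 4 of PdgfrbGFP. Outside the class the trio was found in 1 of 328 perimysial cells, a cell of cluster 9 under Acta2GFP, and in 0 of 1116 endomysial cells (at most 0.269% by 3 counts of the total). In paramysial cells Cthrc1 came mostly with C1qtnf3, as 28 of the 33 cells with Cthrc1 and of the 39 cells with C1qtnf3 held both. Across the 60 cells Pearson's r of log2(level + 1) between this pair was 0.63 and Spearman's rho 0.68. Most of these cells lay on a single plate and C1qtnf3 was at or near 0 under PdgfrbGFP. Cthrc1 itself had an r of 0.30 with depth. In mural cells the r between Cthrc1 and C1qtnf3 was also 0.62 and rho 0.62, although 0 of 187 cells held either gene at 100. These low mural values differed by plate. A read of Cthrc1 was found in 40 and of C1qtnf3 in 48 of 56 mural cells of Acta2GFP, against 7 and 2 of 74 of Cspg4dsRED. The part of the plate in the mural r was not tested. In perimysial and endomysial cells the r of this pair was 0.09 and 0.19.

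**Figure D2:**
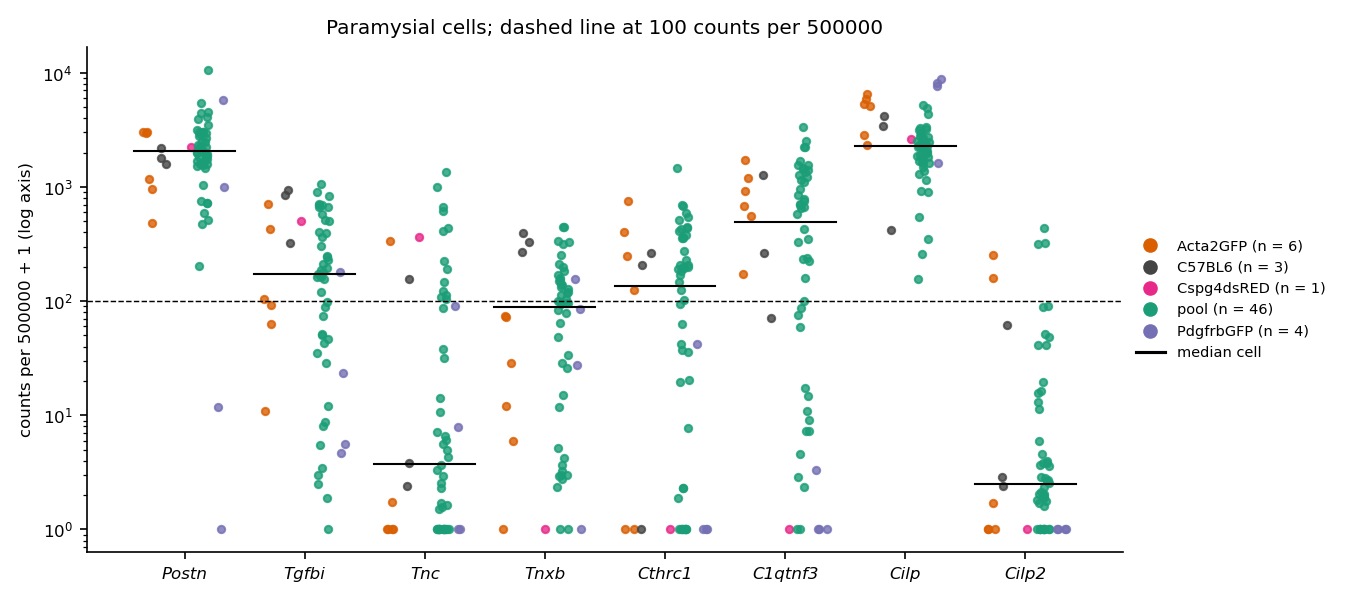
Level of the 8 genes in each of the 60 paramysial cells, in counts per 500000 plus 1 on a log axis, coloured by strain label, with the median cell as a bar and the threshold of 100 dashed. Cilp and Postn are high in nearly every cell, and C1qtnf3 and Cthrc1 range from 0 to 3360 and from 0 to 1451.

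Among perimysial cells the combinations separated Postn from Tnxb. Postn was present in 59 of the 328 cells and Tnxb in 64, and both together in 0 (at most 0.915% by the same limit). The same pair shared 26 of 60 paramysial cells and 60 of 1116 endomysial cells. Of the 59 Postn cells 48 belonged to cluster 9, where no cell held Tnxb at 100, and all 64 Tnxb cells belonged to cluster 2. Within cluster 2 the 11 cells with Postn and the 64 with Tnxb did not overlap. Postn shared 44 perimysial cells with Cilp2, 22 with Tnc, 21 with Cthrc1 and 2 with C1qtnf3. The set of Tnc, Cilp and Cilp2 was together in 180 of 328 perimysial cells (54.9%, interval 49.3 to 60.4), in 2 of 60 paramysial cells and in 0 of 1116 endomysial cells. In endomysial cells the frequent set was Tgfbi, Tnxb and Cilp, in 293 of 1116 cells (26.3%, interval 23.7 to 28.9).

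**Figure D3:**
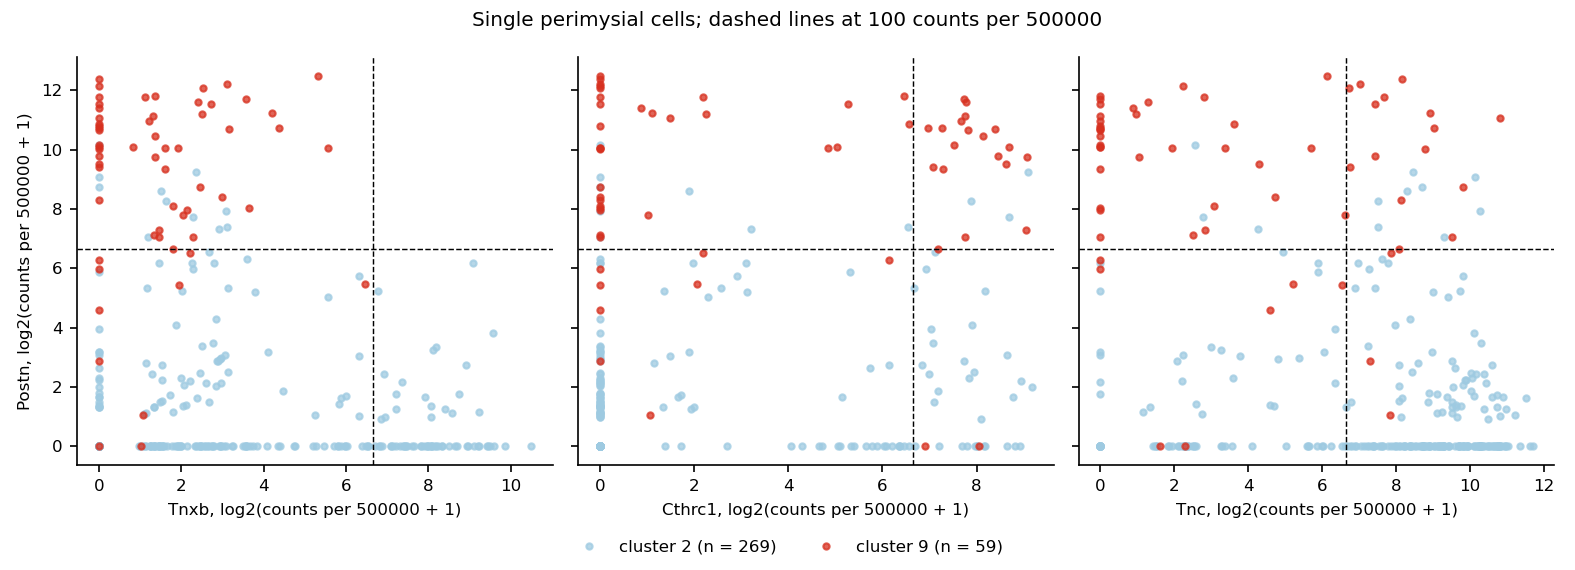
The 328 perimysial cells by their level of Postn (vertical) and of Tnxb, Cthrc1 or Tnc (horizontal), as log2(counts per 500000 + 1), with cluster 9 in red and cluster 2 in blue. The upper right field of the panel for Tnxb, above both dashed thresholds of 100, is empty, and the fields for Cthrc1 and Tnc hold 21 and 22 cells.

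The genes most like each member were ranked by Pearson's r of log2(level + 1) over 37 groups of cells, each a cluster of a strain label with 5 or more cells, among 11318 genes. Groups of a label share plate and depth, and the r is a description. Tnc and Cilp2 were each among the nearest genes of the other, at r = 0.93. Tnc was also close to Tnmd at 0.88 and Scx at 0.87, the tendon membrane protein and factor, and Cilp2 to Atp6v0a4 at 0.93, Col11a1 at 0.93 and Mkx at 0.92. Cthrc1 was near Ddah1 at 0.83, Gas2 at 0.82 and Col11a1 at 0.80. Cilp was nearest to Mfap4, a microfibril protein, at 0.92, and C1qtnf3 to Mfap4 at 0.67 and to Cilp at 0.65. The first match of Postn was P4ha3, a subunit of a collagen prolyl hydroxylase, at 0.69. Tgfbi had Adamts2, a procollagen protease, at 0.88, and Tnxb had Irak3 at 0.84.

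Low levels of Postn are given here by plate. On the soleus plate of the pool, all cells outside the endomysial class together averaged 1646. At least 1 Postn read was found there in 99.1% of endomysial cells, 5 of 5 mural cells and 7 of 7 cells of cluster 10. On the Acta2GFP plate the cells outside the endomysial class averaged 787, and a read was found in 60 of 60 endomysial and 56 of 56 mural cells. On the gastrocnemius plate of the pool they averaged 39.8, and a read was found in 55 of 194 endomysial cells. The median endomysial cell held 42.9 on the first of these plates, 33.2 on the second and 0 on the third. C1qtnf3 showed the same order, with reads in 85.2%, 55.0% and 10.8% of endomysial cells. Taken apart from soleus, the gastrocnemius of PdgfrbGFP stood outside this order for Postn, with reads in 45 of 112 endomysial cells beside a mean of 1.60 in the other classes. The soleus cells of PdgfrbGFP carried the same plate number, so the muscles may share a plate. Outside the endomysial class those soleus cells averaged 685, and a read was found in 66 of 90 endomysial cells. Low levels in endomysial and mural cells moved with the plate, and the part of reads passed between wells of a plate in them was not tested. Of the 32 mural cells with Postn at 100 or more, 25 were on the Acta2GFP plate.

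**Figure D4:**
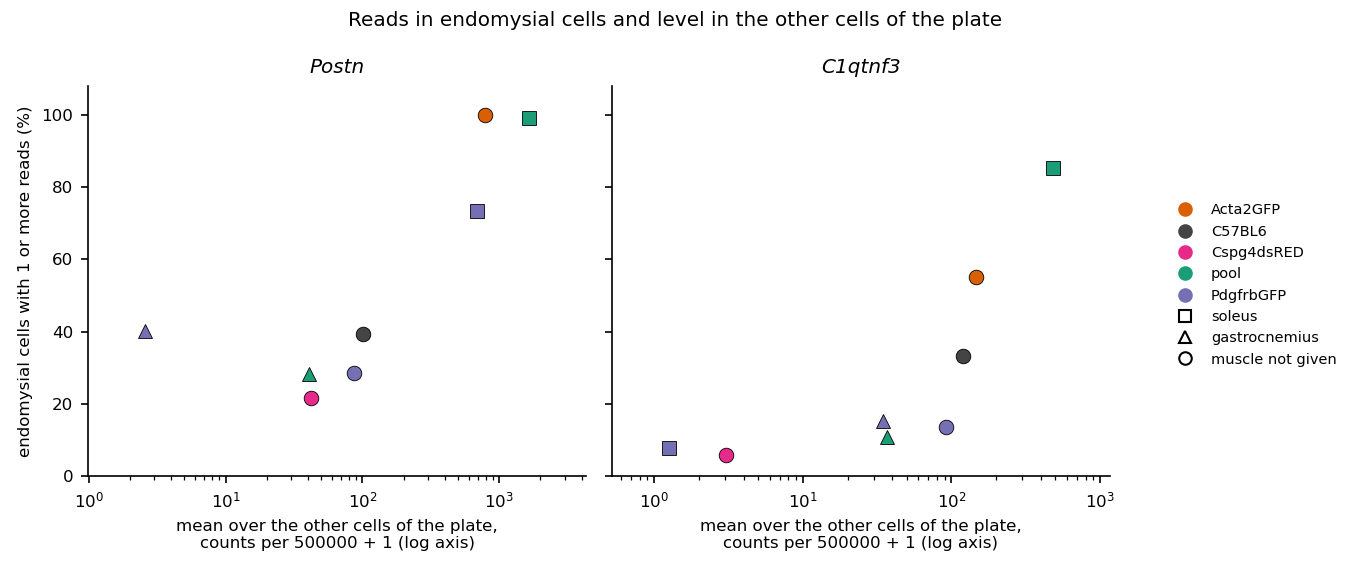
Share of endomysial cells with at least 1 read of Postn (left) or C1qtnf3 (right) against the mean level of the gene in all other cells of the same plate and muscle, on a log axis. Each point is a plate, split by muscle where the label gives it. The plates of the pool's soleus and of Acta2GFP, with means of 1646 and 787 for Postn, reach 99.1% and 100%, and the others stay at 73.3% or below.

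The genes had been chosen with results on muscle known as well, so the comparison of muscles is not independent of their choice. Soleus could be compared with gastrocnemius under 2 strain labels, the pool and PdgfrbGFP. Soleus is a slow postural muscle and gastrocnemius a fast one. Raw counts were summed per strain label and muscle, which gave 4 sums and, with the label as a block, 1 residual degree of freedom. The sums were tested over all genes with edgeR. Soleus and gastrocnemius of the pool had different plate numbers, so plate and muscle cannot be told apart in that label, while both muscles of PdgfrbGFP carried 1 plate number. The p-values weigh the muscle effect against how far these 2 labels differ in it. With 1 residual degree of freedom the test leans on the spread shared across all genes more than on that of each gene. This spread may be technical.

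In perimysial cells, Postn was higher in soleus, and Tnxb, C1qtnf3, Tgfbi, Tnc and Cilp2 were lower, under both labels. Postn was at 24.4 CPM (the summed count scaled to a common library total) in gastrocnemius and 1388 in soleus of the pool, and at 1.50 and 1551 in PdgfrbGFP. Soleus was therefore higher in both labels, by 57-fold (counting interval 48.8 to 67.0) and by 1035-fold (404 to 3802), the latter on 4 reads in gastrocnemius. Counting intervals, here and below, take each read as an independent draw. Reads without molecular identifiers include amplified copies, so these intervals are too narrow. They cover no spread between cells, mice or plates. By cell, Postn was present in 0 of 20 gastrocnemius and 12 of 16 soleus perimysial cells of the pool, and in 0 of 19 and 5 of 16 of PdgfrbGFP.

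Tnxb went the other way, with 259 CPM in gastrocnemius and 30.8 in soleus of the pool, and 275 and 3.38 in PdgfrbGFP. C1qtnf3 was at 181 and 29.4 in the pool and at 173 and 0.750 in PdgfrbGFP, the last on 2 reads, a ratio of 231 with a counting interval of 63.6 to 1914. Tgfbi was at 763 and 110, and at 822 and 395. Tnc was at 1295 and 754 in the pool and at 2565 and 355 in PdgfrbGFP, and Cilp2 at 2869 and 2018 and at 1689 and 426, so that for Cilp2 the soleus of the pool stood above the gastrocnemius of PdgfrbGFP. Cthrc1 was higher in soleus, at 102 and 234 and at 50.2 and 114. Cilp differed least, at 3822 and 3650 and at 3765 and 4910. The values of the muscles did not overlap for 6 of the 8 genes, all but Cilp and Cilp2, and of all 11698 genes tested 4028 (34.4%) did not overlap either.

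None of these differences passed the adjusted test. The edgeR fit called 0 of 11698 genes (0.0%) at an adjusted p under 0.05, while 732 genes (6.26%) had an unadjusted p under 0.05. Of the 8 genes, all of which had passed the filter on low counts, 6 were among the latter, 1 higher and 5 lower in soleus. The SE given with each edgeR fold change was derived from the test, as the size of the change over the square root of the F statistic. The log2 fold change was 7.22 ± 1.07 (SE) for Postn (edgeR adjusted p = 0.418), -4.74 ± 0.95 for Tnxb (0.541) and -4.85 ± 1.39 for C1qtnf3 (0.795). It was -2.14 ± 0.48 for Tgfbi, -2.02 ± 0.55 for Tnc and -1.45 ± 0.41 for Cilp2, with adjusted p from 0.676 to 0.795. For Cthrc1 it was 0.98 ± 0.45 and for Cilp -0.05 ± 0.22. DESeq2 on the same sums called 370 genes (3.16%), and with it the 6 genes passed, Postn at an adjusted p of 6.15e-29, Tnxb at 6.29e-08, C1qtnf3 at 2.59e-05, Tgfbi at 0.000241, Tnc at 0.000337 and Cilp2 at 0.00624. The tools thus differed in the call.

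Marker lists of other cells moved between the muscles as well. From gastrocnemius to soleus, the summed level of 5 mural markers in perimysial cells went from 137 to 202 in the pool and from 191 to 455 in PdgfrbGFP. The 3 endomysial markers went from 768 to 685 and from 1113 to 395, and the 5 fibroblast markers from 10501 to 7596 and from 18044 to 7533. Their part in the differences of the 8 genes was not tested.

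Soleus also held more cells of cluster 9. In the pool 8 of 16 perimysial soleus cells were of cluster 9 against 1 of 20 in gastrocnemius, and in PdgfrbGFP 9 of 16 against 1 of 19. Within cluster 2 alone Postn remained higher in soleus, at a log2 fold change of 3.49 ± 1.39, and Tnxb and C1qtnf3 lower, at -4.41 ± 0.95 and -3.94 ± 1.33, with edgeR adjusted p of 0.999, 0.271 and 0.950. The median of all genes in that fit was -0.34, so that the changes relative to it are less negative by this amount. For Tgfbi, Tnc and Cilp2 the change within cluster 2 is not given here. These 3 genes were at 43.2, 165 and 425 in cluster 9 and at 278, 515 and 1002 in cluster 2. The part of the cluster mix in their lower soleus values was not tested. Postn in cluster 2 was low, with no strain label above 48.0. On the soleus plate of the pool 16 of 16 perimysial cells held a Postn read, the lowest at 36.3, and the median endomysial cell held 42.9. Under PdgfrbGFP a read was found in 73.3% of soleus and 40.2% of gastrocnemius endomysial cells. The part of such low plate-linked reads in the change within cluster 2 was not tested. Of the perimysial cells without a muscle label, 23 of 35 were of cluster 9 in Acta2GFP, 12 of 152 in C57BL6 and 2 of 18 in Cspg4dsRED.

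**Figure D5:**
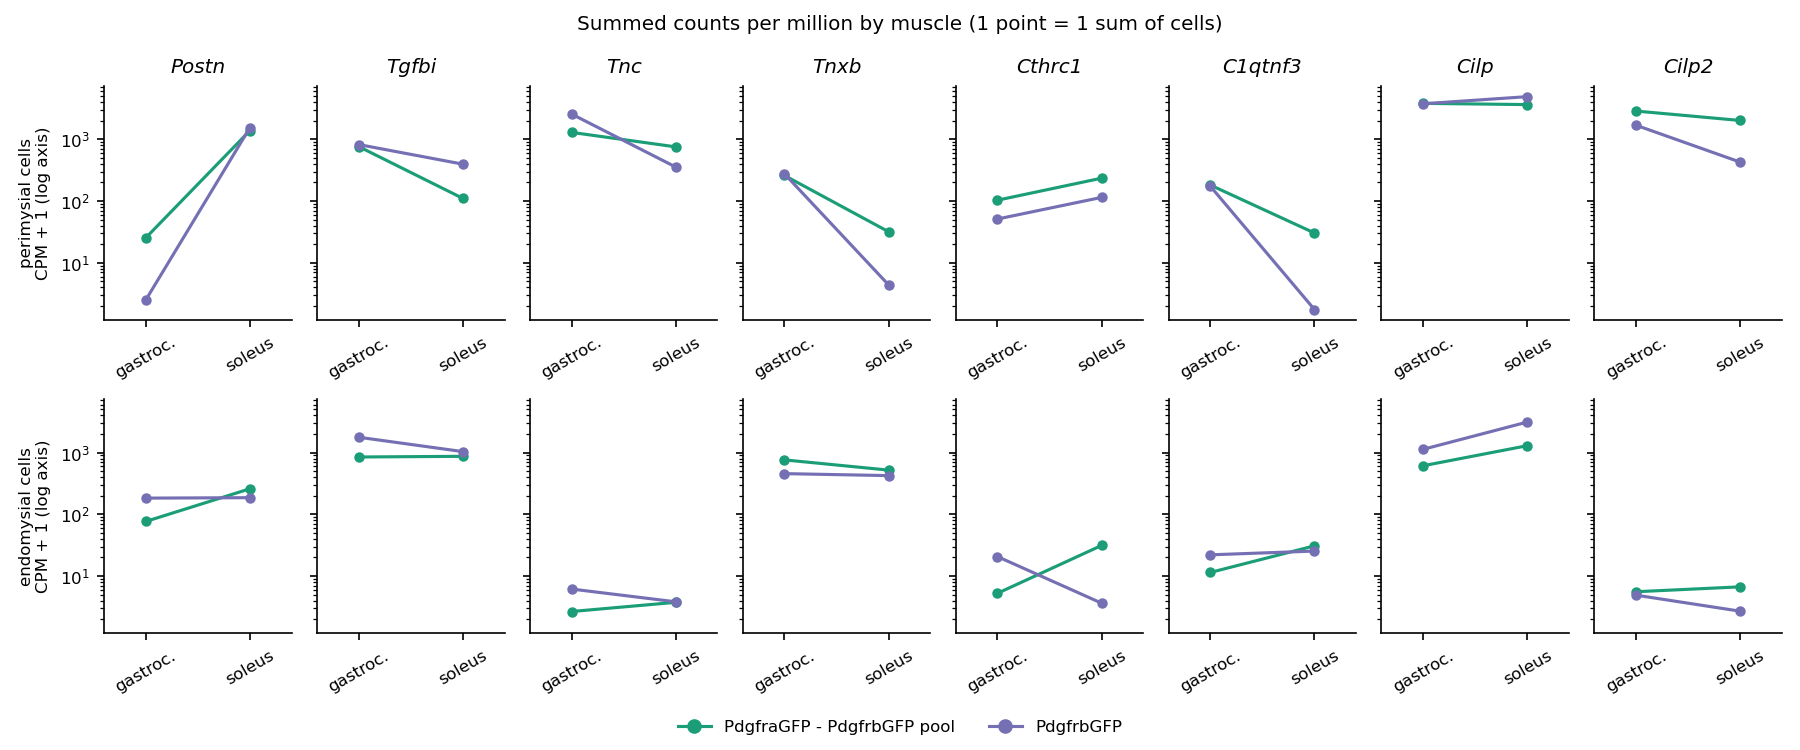
Summed counts in CPM plus 1, on a log axis, of the 8 genes in gastrocnemius and soleus, for perimysial cells (top) and endomysial cells (bottom), with a line for each of the 2 strain labels. In perimysial cells both lines of Postn climb, from 24.4 and 1.50 to 1388 and 1551, and both lines of Tnxb and C1qtnf3 descend, and in endomysial cells both lines of Cilp climb, from 611 and 1128 to 1293 and 3124.

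In endomysial cells Cilp was higher in soleus, at 1293 against 611 CPM in the pool and at 3124 against 1128 in PdgfrbGFP, a log2 fold change of 1.18 ± 0.18. It was the only one of the 8 genes with an unadjusted p under 0.05, which 807 of 16337 genes (4.94%) had, and its edgeR adjusted p was 0.967. The edgeR fit called 0 genes (0.0%), and DESeq2 called 115 (0.704%), Cilp among them with an adjusted p of 0.00041. The endomysial cells were divided differently over the clusters by muscle. In PdgfrbGFP, 16 of 112 gastrocnemius cells were of cluster 1, where Cilp was lowest, and 19 of cluster 3, against 0 and 51 of 90 soleus cells, while in the pool 32 and 116 of 194 gastrocnemius cells stood against 21 and 47 soleus cells. Within cluster 3 the mean level of Cilp per cell, in counts per 500000, was 278 in gastrocnemius and 795 in soleus of the pool, and 1154 and 1847 in PdgfrbGFP. Within cluster 8 it was 239.5 and 528, and 177 and 753, but within cluster 6 the pool had 909 and 831, and PdgfrbGFP 903 and 1971. Postn was at 75.6 and 258.5 CPM in the pool and at 182 and 185 in PdgfrbGFP, a log2 fold change of 0.81 ± 0.47, and the higher value came from the soleus plate on which nearly every cell held a Postn read. Tnxb, at -0.42 ± 0.20, and Tgfbi, at -0.46 ± 0.24, had adjusted p of 0.967.

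Over all sorted cells, whatever their cluster, edgeR again called 0 of 17578 genes (0.0%), with 899 (5.11%) at an unadjusted p under 0.05, and DESeq2 called 219 (1.25%). Postn at a log2 fold change of 2.99 ± 0.81 and Cilp at 1.26 ± 0.19 were higher in soleus, and Cilp2 at -1.32 ± 0.37 and Tgfbi at -0.66 ± 0.20 lower, each at an unadjusted p under 0.05 and an edgeR adjusted p of 0.916. DESeq2 called Postn, Cilp and Cilp2. In such sums the number of cells of a class and the RNA per cell cannot be told apart. Of the 60 paramysial cells 45 were soleus cells of the pool, and without the class the log2 fold change of Postn was 1.83 and that of C1qtnf3 turned from 1.52 to -0.49.

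Other genes of the same pathways were compared in perimysial cells from lists that were also set with earlier results known. The 2 largest and 2 smallest fold changes of a list are named by rule, and further genes with an unadjusted p under 0.05 were chosen after their values were seen. Of all 11698 genes tested, 2.62% were higher and 3.63% lower at an unadjusted p under 0.05, and the counts below stand beside these shares. Of 17 further matricellular genes, 2 were higher in soleus at an unadjusted p under 0.05, Sparcl1 at a log2 fold change of 2.20 ± 0.34 and Spp1 (osteopontin) at 2.18 ± 0.36. Smoc1 at -5.14 ± 2.83 and Wisp2 at -1.73 ± 0.87 were the smallest and missed that threshold, and the 3 genes below 0 that met it were Thbs3 at -1.39 ± 0.40, Thbs2 at -0.75 ± 0.20 and Sparc at -0.50 ± 0.19. Smoc1 was near the floor, at 10.8 CPM or less in every sum. The median of the list was -0.40, beside 0.01 over all genes tested. Perimysial cells of soleus held more of cluster 9. Sparcl1 was at 1516 in cluster 9 and 273 in cluster 2, and Spp1 at 399 and 41.7. Thbs3, Thbs2 and Sparc were at 58.4, 1018 and 3099 in cluster 9 and at 90.1, 1982 and 4433 in cluster 2. The part of this cluster mix in the changes of this list and of the lists below was not tested.

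Among 11 genes that process or cross-link collagen, 0 were higher and 4 lower at that threshold, beside 2.62% and 3.63% of all genes, with a median of -0.67. Pcolce2, an enhancer of procollagen processing, was at -4.42 ± 1.01 and Adamts2 at -2.58 ± 0.38, followed by Loxl4 at -2.47 ± 0.54 and Lox at -2.02 ± 0.25. Loxl1 at 0.70 ± 0.29 and Loxl3 at 0.46 ± 0.39 were the largest. Lox, whose product lysyl oxidase is the enzyme linked to periostin, was at 1581 CPM in gastrocnemius and 484 in soleus of the pool and at 1658 and 437 in PdgfrbGFP. The median of 7 TGF-beta ligands, receptors and binding proteins was -0.06. Of these 2 were lower, Ltbp1 at -2.12 ± 0.31 and Tgfbr3 at -1.34 ± 0.32, and the largest were Ltbp2 at 4.68 ± 2.05 and Tgfbr2 at 0.38 ± 0.25. Of 7 C1q/TNF genes, with a median of -0.62, 1 was lower, C1qtnf1 at -1.97 ± 0.64, beside C1qtnf6 at -1.07 ± 0.51, C1qtnf5 at 0.59 ± 0.36 and C1qtnf4 at 3.98 ± 1.95. Of 7 integrin and syndecan receptors, with a median of 0.11, 0 met the threshold in either direction, with Itga9 at -1.43 ± 0.66, Sdc4 at -1.14 ± 0.54, Itgb5 at 0.68 ± 0.47 and Itga4 at 6.22 ± 3.48. Itga4 held 53.4 CPM in the soleus of the pool and 2.63 or less in the other sums. C1qtnf4 and Ltbp2 were at 0 CPM in the gastrocnemius of PdgfrbGFP. Of the relatives Tnr, Tnn, Stab1 and Stab2 only Stab1 passed the filter, at 0.93 ± 2.85. Stab1 held 15.3 CPM in the soleus of the pool and 3.37 or less in the other sums. The edgeR fit called 0 of these genes after adjustment.

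By class, levels are given for a selection of the listed genes, which does not stand for the whole lists. Others were highest outside the paramysial class. Thbs4, Comp and Thbs2 were at 4974, 2441 and 1622 in perimysial cells and at 3167, 611 and 492 in paramysial cells. Loxl1, which cross-links elastin, was at 829 ± 84.2 in paramysial cells (n = 4), 447 ± 151 in endomysial and 172 ± 87.4 in perimysial cells (n = 5 each). Plod2, a collagen lysyl hydroxylase, was at 83.2 ± 22.4, 25.6 ± 10.7 and 19.6 ± 14.8, and C1qtnf6 at 100.5 ± 37.1, 29.7 ± 4.38 and 38.3 ± 10.3 in the same order. Lox stood at 417 ± 154 in perimysial cells, 349.6 ± 91.9 in paramysial cells and 61.9 ± 48.2 in endomysial cells. Within the perimysial class Lox was at 519 in cluster 2 and 219 in cluster 9. The integrin gene Itgb1, part of receptors for periostin and tenascins, was present throughout, from 168 in cluster 10 to 466 ± 173 in mural cells, and Itgav was at 35.2 ± 9.53 in paramysial cells. For the ligand Tgfb3 the level was 237 ± 122 in paramysial, 238 ± 70.1 in perimysial and 64.3 ± 20.7 in endomysial cells, and the receptor Tgfbr2 was at 355 ± 22.8, 272 ± 128 and 335 ± 125. Tgfbr2 was at 530 in cluster 9, above paramysial cells, and at 214 in cluster 2.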

How the data were processed

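The deposited table held raw read counts per gene and cell. The authors had mapped Smart-seq2 reads to GRCm38 (mm10) with TopHat2, using Bowtie1 or Bowtie2, and counted reads per gene with featureCounts. The gene annotation release and strand setting are not given in the sources used here. Of 1754 columns 1 matched no labelled cell and was not used. Spike-ins were left out. Counts were scaled to 500000 per cell for levels. For soleus against gastrocnemius, raw counts were summed per strain label and muscle and tested with edgeR 4.0.16 in R 4.3.3 (TMM, filterByExpr, quasi-likelihood test, strain label as a block, Benjamini-Hochberg adjustment over all genes tested), with DESeq2 1.42.0 as an alternative. The fit was tested on simulated data. Both muscles carry the same strain label, which is where the pairing comes from, and with 2 pairs it was not checked further. Symbols and positions followed GENCODE M21. The members and lists were chosen with earlier results of these data known. Named genes were the 8 members, the 2 largest and 2 smallest fold changes of the fixed lists, a selection of their class levels, and genes from the 5 of highest correlation with each member. No doublet caller was run. The replicate is the strain label, and depth is given in the report.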

Additional observations from a re-analysis of the deposited data

Results flagged for a closer look

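In 9 of 48 groups of 4 or 5 strain labels 1 label stood apart from the rest by Dixon's test, which chance alone gives in about 1 of 20 groups. Acta2GFP was the far label for C1qtnf3 in endomysial cells (15.6, others 7.74 to 9.32), in cluster 2 (390, others 16.1 to 122) and in cluster 9 (156, others 0 to 7.91), for Postn in perimysial cells (1596, others 68.0 to 267) and for Cthrc1 in mural cells (6.23, others 0.216 to 1.2). In the perimysial class of Acta2GFP 23 of 35 cells were of cluster 9. C57BL6 was the far label for Tgfbi in mural cells (32.8, others 7.82 to 12.4), for Tnxb in mural cells (98.2, others 2.22 to 16.1), where it had 9 cells, and for Tnc in endomysial cells (4.76, others 0.773 to 1.37). The pool was the far label for Cilp2 in mural cells (20.8, others 0.981 to 5.11).

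In 8 cases the change from gastrocnemius to soleus, as log2 of CPM + 1, had opposite signs in the pool and in PdgfrbGFP, and these differences between the labels were not tested. In endomysial cells the difference was 0.81 for Tgfbi (0.04 in the pool, -0.77 in PdgfrbGFP), 1.18 for Tnc, 5.08 for Cthrc1 (2.58 and -2.51) and 1.13 for Cilp2. In perimysial cells it was -0.45 for Cilp. Over all sorted cells it was 2.84 for Tnc, 3.84 for Cthrc1 and 5.00 for C1qtnf3 (4.08 and -0.92). C1qtnf3 also went opposite ways in 2 classes. It was higher in soleus in endomysial cells, by 1.43 and 0.20, and lower in perimysial cells, by -2.58 and -6.64, a difference between the class means of 5.43 that was not tested.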

How the results depend on the processing

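The main fits called 0 genes in each population. DESeq2 called 115 in endomysial, 370 in perimysial and 219 over all sorted cells. In perimysial cells, 1 gene was called without the filter on low counts, 3 within cluster 2 alone (chosen after seeing the data), and 12 to 103 when 1 library was left out, in fits without the block, where the lone library is assumed to vary like the others. Postn was called in each of these 4 fits (adjusted p 5.87e-08 to 0.0216), Tnxb and C1qtnf3 without either library of the pool, and Tnc without the pool's gastrocnemius. No replicate block changed no call, and it turned Cthrc1 in endomysial cells to 0.23 on the log2 scale, as equal weighting of cells did to 0.32. Cilp in cluster 2 alone turned to 0.18, and C1qtnf3 over all cells without paramysial cells to -0.49. With 1 library left out, the log2 fold change ran from -0.73 to 3.60 for C1qtnf3 over all cells, from -0.38 to 0.30 for Cilp in perimysial cells, and in endomysial cells from -1.31 to 0.23 for Cilp2, -2.23 to 1.87 for Cthrc1, -1.07 to 0.18 for Tgfbi and -1.07 to 0.74 for Tnc. The causes were not tested. The other 154 recomputed fold changes outside these left-out fits kept direction and side of the threshold, and 10 came past it. The share of paramysial cells with Postn, Cthrc1 and C1qtnf3, 45.3% as a mean over labels, ran from 38.2% to 60.4% with 1 label left out. Of the recomputed shares of cells 69 moved by more than the spread between labels, mostly under a lower threshold for presence, and 3 of the mean levels did, Postn (2270) and Tnc (111) in paramysial cells pooled over labels and Cthrc1 in endomysial cells as a ratio of sums. Depth limits Tnxb, C1qtnf3 and Postn in perimysial cells of PdgfrbGFP, which rest on 9, 2 and 4 reads in their lower muscle.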
